A study of Mus musculus with 93 samples.

Results

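The replication-dependent core histone genes encode the H2A, H2B, H3 and H4 proteins around which DNA is wrapped. They were taken as every gene of the count tables with a symbol of the Hist1, Hist2, Hist3 or Hist4 series for one of these proteins, which gave 63 of 33924 genes. By histone type the 63 genes were 20 H2A, 18 H2B, 12 H3 and 13 H4 genes. By cluster 50 lay in Hist1 on chromosome 13, 10 in Hist2 on chromosome 3, 2 in Hist3 on chromosome 11 and 1 was the lone Hist4 gene on chromosome 6. Mouse R1 embryonic stem cells, grown in serum with leukaemia inhibitory factor, gave the RNA of 12 of the 93 samples of the series. The 4 groups had 3 libraries each and formed 2 sets, each with its own wild type. In set 1, cells of the genotype Ring1b I53A were compared with wild type R1 cells. Ring1b is the subunit of Polycomb repressive complex 1 that attaches ubiquitin to histone H2A, and I53A is a point mutation in it. In set 2, cells labelled H1b/c/d/e-QKO, a quadruple knockout of linker histone genes, were compared with wild type R1 cells of that set. The labels do not say whether a genotype was 1 clone or several, nor whether replicates were grown as separate cultures. The p-values therefore reflect spread among libraries only, and it may be technical.

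Core histone mRNA is made mostly in S phase, when newly copied DNA needs new nucleosomes. NPAT, driven by cyclin E and CDK2, activates the genes in nuclear bodies that form on the clusters. The mRNAs carry no introns and end in a stem-loop bound by SLBP rather than in a poly(A) tail, although some of the genes also give longer polyadenylated transcripts. Many copies encode the same or nearly the same protein. H2A and H2B genes often lie head to head and share a promoter, with CCAAT boxes and, in H2B promoters, an octamer bound by the OCT1 protein.

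The promoters of the genes on which the results below turn are shown first, as the 250 bases before the annotated start on the gene's own strand, from RefSeq on the build GRCm38.p6. The counts were made on mm9, so these coordinates belong to another build than those given elsewhere. Of the 63 genes, all matched a RefSeq gene and 56 had a promoter window. Capitals mark the TATA box letters TATAAA, the box CCAAT and the octamer letters ATTTGCAT, each searched on both strands, where a match on the other strand appears as its reverse complement. Hist2h2bb (chr3:96269450-96269699, plus strand), Hist1h4i (chr13:22041363-22041612, minus strand), Hist3h2ba (chr11:58948661-58948910, plus strand) and Hist1h2ah (chr13:22035644-22035893, minus strand) are shown because they were higher in I53A cells. The window that Hist1h2bq (chr13:21810200-21810449, minus strand) and Hist1h2br (chr13:21833493-21833742, plus strand) share in all 250 of 250 bases is shown because these copies had no counts at all in set 1.
Hist2h2bb: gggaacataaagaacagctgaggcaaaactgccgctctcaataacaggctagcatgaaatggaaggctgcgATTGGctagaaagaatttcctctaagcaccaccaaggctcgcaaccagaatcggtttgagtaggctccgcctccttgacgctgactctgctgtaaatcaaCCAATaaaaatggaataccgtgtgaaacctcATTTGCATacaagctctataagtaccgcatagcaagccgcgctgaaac
Hist1h4i: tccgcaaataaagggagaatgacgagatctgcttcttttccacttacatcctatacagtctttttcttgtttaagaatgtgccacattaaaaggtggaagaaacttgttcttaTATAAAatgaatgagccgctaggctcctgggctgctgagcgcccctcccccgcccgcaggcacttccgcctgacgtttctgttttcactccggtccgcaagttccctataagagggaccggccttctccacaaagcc
Hist3h2ba: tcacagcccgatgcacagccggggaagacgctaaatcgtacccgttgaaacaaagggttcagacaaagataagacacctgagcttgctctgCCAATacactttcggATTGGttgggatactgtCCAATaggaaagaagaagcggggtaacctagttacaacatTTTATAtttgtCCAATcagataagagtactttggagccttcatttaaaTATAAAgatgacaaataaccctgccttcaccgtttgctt
Hist1h2ah: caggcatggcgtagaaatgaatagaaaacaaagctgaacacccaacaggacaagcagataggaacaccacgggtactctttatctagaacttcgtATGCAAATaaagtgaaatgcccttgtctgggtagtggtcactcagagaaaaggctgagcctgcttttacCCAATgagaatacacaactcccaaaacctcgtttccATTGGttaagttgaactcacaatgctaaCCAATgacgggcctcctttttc
Hist1h2bq and Hist1h2br: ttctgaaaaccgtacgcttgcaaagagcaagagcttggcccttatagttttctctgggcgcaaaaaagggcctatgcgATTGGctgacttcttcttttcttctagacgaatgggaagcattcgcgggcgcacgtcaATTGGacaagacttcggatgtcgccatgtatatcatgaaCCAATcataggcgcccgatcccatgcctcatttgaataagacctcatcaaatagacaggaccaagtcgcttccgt

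The H2A and H2B windows printed here all hold CCAAT, and those of Hist2h2bb and Hist1h2ah also hold the octamer, ATTTGCAT. Hist1h4i, an H4 gene, has TATAAA and no match to the other motifs. Over all 56 windows CCAAT was found in 45 (80.4%), TATAAA in 25 (44.6%) and ATTTGCAT in 13 (23.2%), against 33.8%, 12.4% and 1.6% of all 32851 RefSeq windows of this length. CCAAT was in all 18 H2A and all 16 H2B windows, in 8 of 10 H3 windows and in 3 of 12 H4 windows. The octamer was in 7 H2A and 6 H2B windows and in no H3 or H4 window. Windows of head-to-head pairs can overlap, and both strands were searched. The same site can therefore be counted for both genes of a pair, and these windows are not independent. A match is only these letters in this window, and a window without them says nothing of the factor.

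Library totals ranged from 12585621 to 23378930 counts, and no pair of replicates was as close as counting noise alone, since the chi-square over genes was 2.25 to 29.7 times its degrees of freedom. Replicate 3 of both set 1 groups stood apart, at 23.0 to 29.7 times against replicates 1 and 2 of its group, and its tables follow another naming style. Levels are given as CPM, the count of a gene scaled to the size of its library, with TMM factors computed within each set. Of 12 embryonic stem cell markers 1 was called higher and 4 lower in I53A, with a summed level of 6170 to 6310 CPM in I53A and 7210 to 7500 CPM in wild type libraries. In set 2, 7 were called higher and 4 lower, with sums of 8270 to 8380 CPM in libraries labelled QKO and 7270 to 7360 CPM in wild type. Primitive endoderm markers were called higher in I53A cells for 12 of 12 genes, with a summed level of 2550 to 2650 CPM in I53A libraries and 186 to 198 CPM in wild type libraries. In set 2 they were called higher for 6 of 10 tested genes, at 181 to 187 CPM in libraries labelled QKO and 142 to 159 CPM in wild type. Fibroblast markers summed to 61.3 to 67.5 CPM in I53A and 26.3 to 28.1 CPM in wild type of set 1, where Postn, Dcn and Fap were at 0. They summed to 41.7 to 42.8 CPM in libraries labelled QKO and 22.9 to 23.6 CPM in wild type of set 2. Of the tested trophoblast, neural and mesoderm markers, 5 of 7, 2 of 6 and 4 of 6 were called higher in I53A and 0, 3 and 0 lower, also by DESeq2 and at an unadjusted p under 0.05. In libraries labelled QKO 1 of 5, 3 of 5 and 0 of 3 were called higher and 3, 2 and 1 lower, with no mesoderm marker higher by DESeq2 or at an unadjusted p under 0.05. The part of other cell types in the histone results was not tested, and in bulk RNA more cells of a type and more RNA per cell cannot be told apart. Of the 4 linker histone genes named by the QKO label 3 were tested in set 2, since Hist1h1e had too few counts, and 0 were called lower by edgeR, by DESeq2 or at an unadjusted p under 0.05. Hist1h1b averaged 3.10 ± 0.396 CPM in libraries labelled QKO and 0.273 ± 0.205 CPM in wild type, with edgeR's adjusted p = 5.5e-12. The deleted part of each gene was not given in the sources used here, so these counts do not check the label.

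Core histone transcripts were scarce in all libraries. Summed over the 63 genes, I53A libraries held 28.5, 30.3 and 38.6 CPM, against 11.7, 12.7 and 23.7 CPM in the wild type libraries of set 1. In set 2 the sums were 62.6, 63.4 and 60.7 CPM in libraries labelled QKO, against 34.7, 34.6 and 37.8 CPM in wild type. In both sets every mutant library lay above every wild type library, and the ratio of means was 2.02 in set 1 and 1.74 in set 2. Replicate 3 was the highest library of both set 1 groups. The ratio was 2.41 over replicates 1 and 2 of set 1 and 1.63 for replicate 3 alone.

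**Figure D1:**
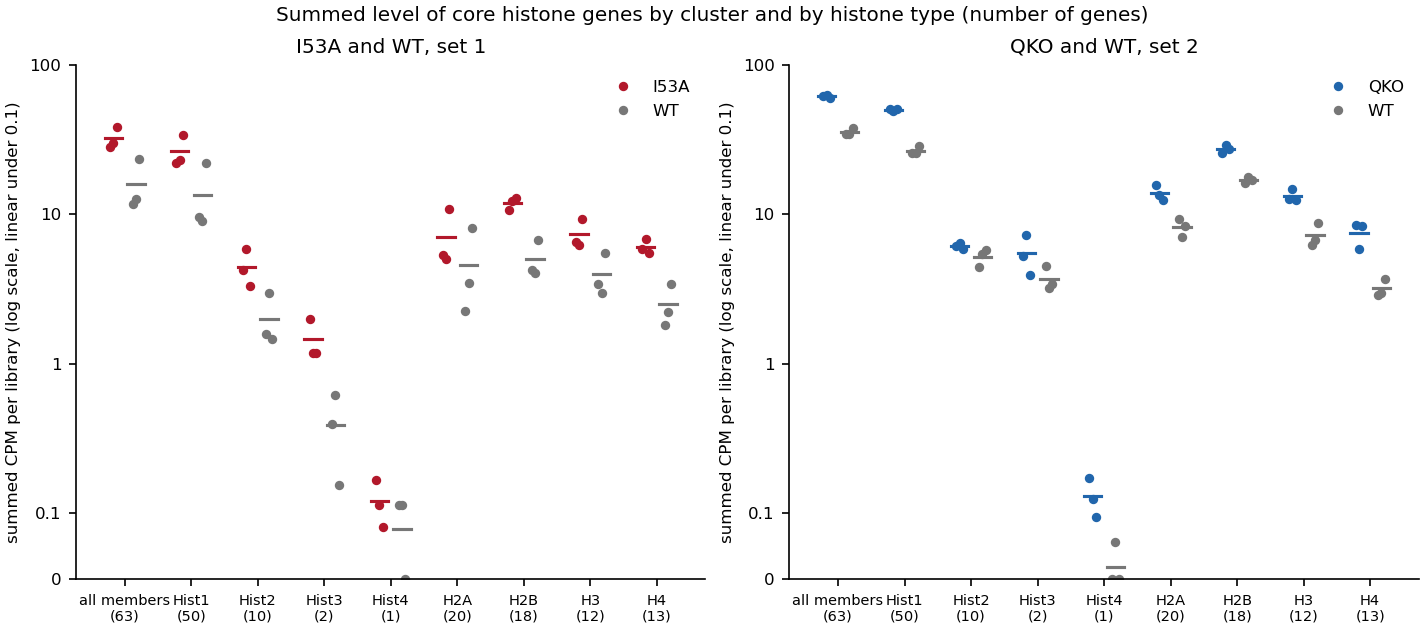
Summed CPM per library (log axis, linear under 0.1) of all 63 genes, of each cluster and of each histone type, with the number of genes in brackets; points are libraries and lines are means of 3. The I53A and QKO points lie above wild type for the sum of all genes, while the Hist1 and H2A sums of set 1 overlap.

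Few of the genes were measured well. A mean of at least 1 CPM was reached by 10 genes in I53A and 3 in wild type of set 1, and by 15 genes in libraries labelled QKO and 8 in wild type of set 2. RPKM is CPM per kilobase of annotated exon, here with CPM scaled over all 12 libraries. The median gene stood at 0.519 RPKM in I53A and 0.187 RPKM in wild type of set 1. In set 2 it stood at 0.668 RPKM in libraries labelled QKO and 0.335 RPKM in wild type. The highest per length in set 2 was Hist1h2bc, an H2B gene, with 15.3 RPKM in libraries labelled QKO and 11.1 RPKM in wild type. In set 1 Hist1h4i led the I53A libraries with 5.36 RPKM, and Hist1h2af, an H2A gene, led wild type with 3.02 RPKM. Annotated exon length ran from 312 to 2955 bases, with a median of 519. The 21 genes over 600 bases made up 7 of the 10 that reached 1 CPM in I53A and 8 of the 15 in libraries labelled QKO. Of the listed non-coding RNAs that mostly carry no poly(A) tail, only 4 were among the counted genes. They summed to at most 0.305 CPM in any library. Listed names such as Rn7sk and Rmrp were absent from the counted genes. The selection of RNA for the libraries was not given in the sources used here. Its part in these low levels was not tested.

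In I53A cells, core histone genes of several clusters were higher than in wild type, led by Hist2h2bb, an H2B gene, and Hist1h4i, an H4 gene. Of the 63 genes, 14 passed the filter on low counts, and edgeR's quasi-likelihood test called 5 higher and 0 lower at an adjusted p under 0.05. Over all 15536 genes tested 35.5% were called, with 18.1% higher and 17.4% lower. With the replicate number as a block 56.6% of all genes were called, and 5 of the histone genes again. DESeq2 also called 5 higher and 0 lower, and at an unadjusted p under 0.05 edgeR had 0 lower. Since a gene can pass the filter through the group where it is high, the 14 tested genes are not a sample of the 63.

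Hist2h2bb had 1.99, 2.36 and 1.73 CPM in I53A libraries, against 0.224, 0.112 and 0.0763 CPM in wild type. The groups were far apart, and the log2 fold change was 3.77 ± 0.44 (SE) with an adjusted p of 0.00043. On mm9 Hist2h2bb runs from 96073644 to 96082924 on the plus strand of chromosome 3, with 2 exon blocks that sum to 1511 bases, so it is annotated with a spliced form that most core histone genes lack. Hist1h4i had 3.16, 3.54 and 2.37 CPM in I53A libraries, against 0.449, 0.669 and 0.687 CPM in wild type. Every I53A library was above every wild type library, with a log2 fold change of 2.33 ± 0.32 and an adjusted p of 0.00088. Its mm9 position is 22132685 to 22133221 on chromosome 13, minus strand.

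Hist3h2ba, the H2B gene of the small Hist3 cluster (chromosome 11, 58762413 to 58763032, plus strand), had 1.88, 1.07 and 0.710 CPM in I53A libraries, against 0.393, 0.223 and 0.153 CPM in wild type. The groups did not overlap (log2 fold change 2.20 ± 0.54, adjusted p = 0.014). Its call ended when wild type replicate 2 or I53A replicate 1 was left out, with adjusted p-values of 0.058 and 0.070. Hist1h2ah, an H2A gene (chromosome 13, 22126982 to 22127512, minus strand), had 0.720, 0.843 and 1.18 CPM in I53A libraries, against 0.224, 0.223 and 0.153 CPM in wild type. It rested on 13 to 15 counts per I53A library and 2 to 4 per wild type library, and the fit gave 2.10 ± 0.46 with an adjusted p of 0.0087. Hist1h2bc (chromosome 13, 23776068 to 23784357, plus strand) had 2.99, 3.37 and 4.26 CPM in I53A libraries, against 1.18, 0.446 and 1.60 CPM in wild type. These groups did not overlap either, with a log2 fold change of 1.74 ± 0.40 and an adjusted p of 0.011.

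The other 9 tested genes did not pass in set 1. Hist2h2be, an H2B gene, was the only tested gene with a value below 0. It had 1.16, 1.46 and 0.473 CPM in I53A libraries, against 1.07, 2.01 and 0.992 CPM in wild type, and the groups overlapped (log2 fold change -0.37 ± 0.46, adjusted p = 0.58). Hist1h2ae, an H2A gene, had 1.66, 1.12 and 2.13 CPM in I53A libraries, against 0.673, 0.558 and 1.45 CPM in wild type. It gave 0.90 ± 0.44 with an adjusted p of 0.15, and it passed over replicates 1 and 2 alone at 1.17 with an adjusted p of 0.043.

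The 4 H3 genes tested in set 1 had values above 0 with wide errors, and none passed in the main fit. The other H3 genes had too few counts to be tested. Of all 12 H3 genes, 4 had groups that did not overlap, all higher in I53A (33.3%, against 18.6% of all genes with a count). Hist1h3d had 6, 15 and 11 counts in I53A libraries and 4, 2 and 2 in wild type. EdgeR called it higher without I53A replicate 1 (2.33, adjusted p = 0.027), but not without a filter on low counts (1.98). Hist1h3g had 1.22, 0.843 and 1.42 CPM in I53A libraries, against 0.898, 0.502 and 0.305 CPM in wild type (adjusted p = 0.13). Hist1h3c had 1.11, 0.562 and 2.37 CPM in I53A libraries, against 0.393, 0.502 and 1.37 CPM in wild type (adjusted p = 0.35). Hist1h3e had 0.830, 0.899 and 1.42 CPM in I53A libraries, against 0.842, 0.335 and 0.763 CPM in wild type (adjusted p = 0.28). The groups of these 3 overlapped. Hist1h4d, an H4 gene, had 0.830, 0.618 and 1.58 CPM in I53A libraries, against 0.505, 0.446 and 0.992 CPM in wild type, which also overlapped (adjusted p = 0.37). Of the remaining tested genes Hist1h2bg stood at 1.10 ± 0.86, Hist1h2bk at 0.73 ± 0.59 and Hist1h3f at 0.63 ± 0.49 on the log2 scale.

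Hist1h2af was not tested in set 1, although it was among the highest genes of wild type. Its counts were 1, 0 and 19 in I53A libraries and 2, 7 and 44 in wild type libraries. Replicate 3 held 19 of 20 counts in I53A and 44 of 53 in wild type, so both means of Hist1h2af in set 1 rest mostly on that replicate. Without this gene the ratio of the summed level was 2.17.

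**Figure D2:**
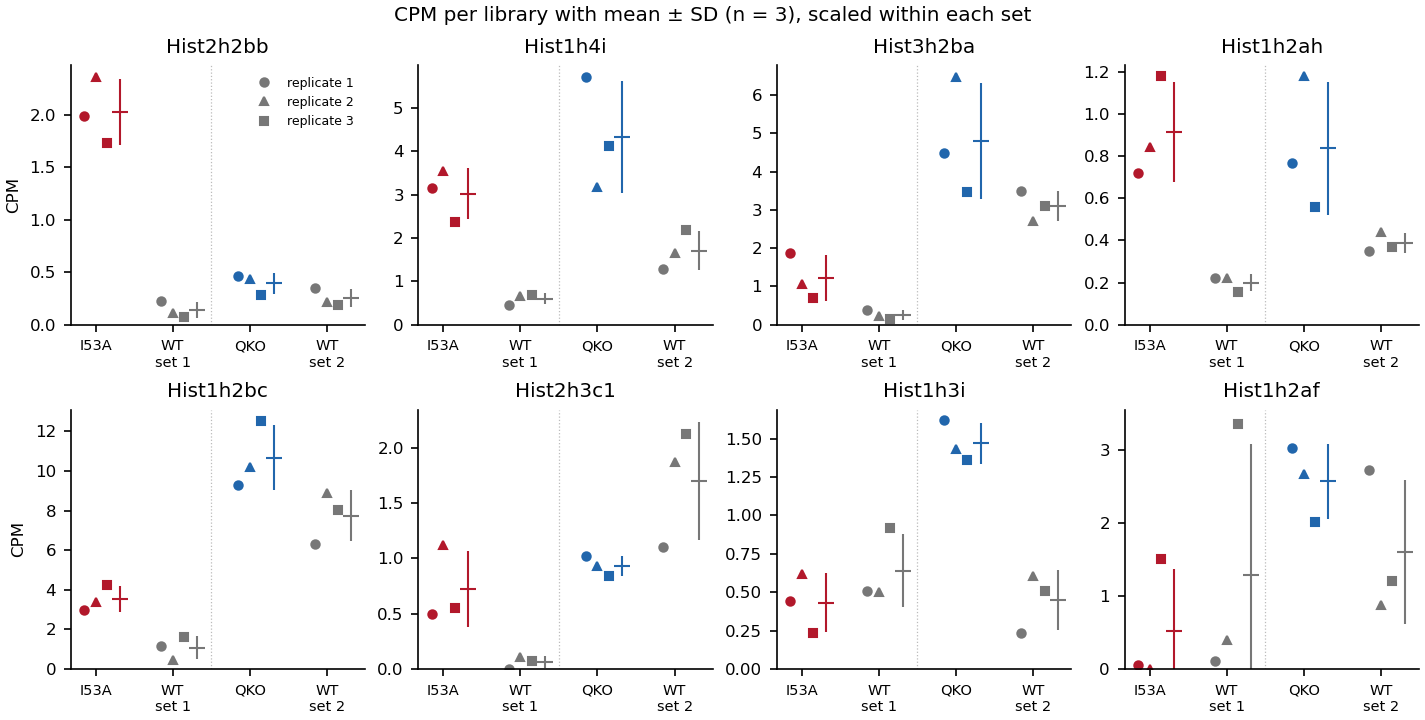
CPM per library of 8 core histone genes in I53A and wild type of set 1 and in the libraries labelled QKO and wild type of set 2; symbols mark replicate numbers, and bars the mean ± SD of 3 libraries. The first 5 genes were called higher in I53A, Hist2h3c1 and Hist1h3i differed between the sets in their response, and Hist1h2af is high in replicate 3 of set 1.

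By histone type, the summed H2B level of set 1 was 11.9 ± 1.09 CPM in I53A and 5.00 ± 1.49 CPM in wild type (SD, n = 3 each), a ratio of 2.39. H4 genes summed to 6.08 ± 0.694 CPM in I53A and 2.49 ± 0.849 CPM in wild type, a ratio of 2.44. H3 genes summed to 7.38 ± 1.74 CPM in I53A and 3.96 ± 1.35 CPM in wild type, a ratio of 1.87. For these 3 types no wild type library reached the lowest I53A library. H2A genes summed to 7.07 ± 3.31 CPM in I53A and 4.60 ± 3.09 CPM in wild type, and their libraries overlapped. Replicate 3 was the highest of both groups, and within each replicate number the I53A library was the higher one, at 5.31, 5.00 and 10.9 CPM in I53A, against 2.24, 3.46 and 8.09 CPM in wild type. By cluster the ratio was 1.95 for Hist1, 2.24 for Hist2 and 3.76 for Hist3. The Hist1 libraries overlapped by a narrow margin, with 22.0, 23.2 and 34.1 CPM in I53A, against 9.65, 8.98 and 22.1 CPM in wild type, and again each I53A library was above the wild type library of its number. With library totals in place of TMM the Hist1 groups did not overlap.

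Without a filter on low counts, 53 of the 63 genes had a count in set 1, and 45 of them lay above 0. The median log2 fold change of the 53 was 0.88, against 0.03 over all 24663 genes with a count. The groups of CPM did not overlap for 11 of the 53 genes, all higher in I53A, which is 20.8% against 18.6% of all genes with a count (16.7% were lower without overlap). That share is near the background. Among the 11 were 3 Hist2 genes with few reads. Hist2h3b had 4, 3 and 3 counts in I53A libraries and 0, 2 and 1 in wild type. Hist2h2aa2 had 2, 6 and 2 counts in I53A libraries and 1, 0 and 0 in wild type. Hist1h2bp had 9, 20 and 10 counts in I53A libraries and 2, 6 and 0 in wild type. The unfiltered edgeR fit called it higher (2.27, adjusted p = 0.045).

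In the libraries labelled QKO, core histone genes of the Hist1 cluster were higher than in wild type across all 4 histone types, and 1 Hist2 gene was lower. The H3 genes Hist1h3d, Hist1h3i, Hist1h3c and Hist1h3g and the H2B gene Hist1h2be had the largest increases among the genes that passed the filter on low counts, at 1.41 to 1.90 on the log2 scale. Of the 63 genes, 23 were tested, and edgeR's quasi-likelihood test called 16 higher and 1 lower. By type, 3 of 5 tested H2A genes, 7 of 8 H2B, 4 of 8 H3 and 2 of 2 H4 genes were called higher. Of all 15439 genes tested 57.7% were called, with 28.7% higher and 29% lower, so a call was common in this comparison. Here too a gene can pass the filter through its higher group, so the 23 tested genes are not a sample of the 63. Of the 16, the calls of 6 held under all alternatives that tested them: Hist1h3i, Hist1h4i, Hist1h3g, Hist1h3d, Hist1h2be and Hist1h3c. DESeq2 called 12 higher and 1 lower. With all 12 libraries in a shared fit, where the spread of set 1 enters, 7 genes were called, all higher. The share of all genes called by DESeq2 or in the shared fit is not given here.

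H3 is the histone whose tail carries most of the well-known modifications. Hist1h3d had 1.15, 0.807 and 1.22 CPM in libraries labelled QKO, against 0.580, 0.165 and 0.139 CPM in wild type. The groups did not overlap, with a log2 fold change of 1.90 ± 0.46 and an adjusted p of 0.0004. Hist1h3i had 1.62, 1.43 and 1.36 CPM in libraries labelled QKO, against 0.232, 0.606 and 0.510 CPM in wild type. That is 1.68 ± 0.38 on the log2 scale, with an adjusted p of 0.00014. Hist1h3c had 1.92, 2.42 and 2.10 CPM in libraries labelled QKO, against 0.696, 0.771 and 0.834 CPM in wild type. Its 3 replicates lay close together in each group, and the fit gave 1.46 ± 0.31 with an adjusted p of 5.2e-05. Hist1h3g, the H3 gene with the most counts in set 2, had 3.80, 4.53 and 3.41 CPM in libraries labelled QKO, against 1.57, 1.27 and 1.53 CPM in wild type. Every library labelled QKO was above every wild type library, with 1.41 ± 0.23 and an adjusted p of 6.4e-07.

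Not all H3 genes were called. Hist1h3h had 1.19, 1.55 and 1.59 CPM in libraries labelled QKO, against 0.580, 0.716 and 1.44 CPM in wild type, and the groups overlapped through wild type replicate 3 (adjusted p = 0.12). Hist1h3e had 1.11, 1.06 and 0.655 CPM in libraries labelled QKO, against 0.348, 0.275 and 1.07 CPM in wild type (adjusted p = 0.17). Without wild type replicate 3 both passed, at adjusted p-values of 0.015 and 0.011. Hist1h3a stood at -0.04 ± 0.45.

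Hist2h3c1, an H3 gene of the Hist2 cluster (chromosome 3, 96049477 to 96052431, plus strand), was the only core histone gene called lower. It had 1.02, 0.931 and 0.842 CPM in libraries labelled QKO, against 1.10, 1.87 and 2.13 CPM in wild type. The groups did not overlap by a narrow margin (log2 fold change -0.88 ± 0.32, adjusted p = 0.016). Without wild type replicate 3 the value was -0.68 with an adjusted p of 0.12, and without replicate 3 of the libraries labelled QKO it was -0.80 with an adjusted p of 0.055. Its exons share 19.0% of their bases with Hist2h2aa1, which had no counts in any library, and its counts are given as uncertain for that reason. How reads of such overlapping or copied genes were split was not tested.

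H4 pairs with H3 in the nucleosome core and is nearly the same protein from every gene copy. Hist1h4i had 5.72, 3.17 and 4.11 CPM in libraries labelled QKO, against 1.28, 1.65 and 2.18 CPM in wild type. The groups did not overlap, at 1.35 ± 0.23 with an adjusted p of 1.6e-06. Hist1h4k had 0.725, 0.683 and 1.08 CPM in libraries labelled QKO, against 0.232, 0.386 and 0.371 CPM in wild type. It gave 1.31 ± 0.45 with an adjusted p of 0.011, and lost its call without wild type replicate 1 (0.057) or without replicate 3 of the libraries labelled QKO (0.091).

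H2B genes gave 7 of the 16 increases, from 8 tested, while 28.7% of all genes tested were called higher. Hist1h2bc had 9.30, 10.2 and 12.5 CPM in libraries labelled QKO, against 6.32, 8.87 and 8.02 CPM in wild type. Although it held more reads than any other core histone gene, its log2 fold change was the smallest of the calls, 0.46 ± 0.13 (adjusted p = 0.0021), and it was lost at 0.058 without replicate 3 of the libraries labelled QKO. Hist1h2be had 1.45, 1.37 and 1.08 CPM in libraries labelled QKO, against 0.348, 0.441 and 0.371 CPM in wild type, with 1.73 ± 0.39 and an adjusted p of 0.00018. Hist2h2be had 3.97, 3.79 and 3.79 CPM in libraries labelled QKO, against 2.44, 2.37 and 2.27 CPM in wild type. Its groups were tight and apart, with 0.71 ± 0.20 and an adjusted p of 0.0022. Hist3h2ba had 4.48, 6.46 and 3.46 CPM in libraries labelled QKO, against 3.48, 2.70 and 3.10 CPM in wild type. These groups overlapped, and its call (0.61 ± 0.20, adjusted p = 0.007) ended at 0.15 without replicate 2 of the libraries labelled QKO.

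The other 3 H2B genes called in set 2 had fewer reads. Hist1h2bp had 0.939, 2.23 and 1.31 CPM in libraries labelled QKO, against 0.870, 0.881 and 0.324 CPM in wild type (1.10 ± 0.38, adjusted p = 0.012). Hist1h2bk had 1.37, 0.807 and 1.12 CPM in libraries labelled QKO, against 0.464, 0.165 and 0.927 CPM in wild type, which overlapped (1.05 ± 0.41, adjusted p = 0.026). Hist1h2bq had 0.512, 1.06 and 1.31 CPM in libraries labelled QKO, against 0.464, 0.330 and 0.510 CPM in wild type, which came close to each other without overlap (1.10 ± 0.43, adjusted p = 0.025). Each of the 3 lost its call when a library was left out. Hist1h2bp stood at an adjusted p of 0.12 without wild type replicate 3 and 0.15 without replicate 2 of the libraries labelled QKO. Hist1h2bq was at 0.10 without wild type replicate 2 and 0.070 without replicate 2 of the libraries labelled QKO. Hist1h2bk lost it without wild type replicate 1 (0.075) or 2 (0.21), and without replicate 1 (0.15) or 3 (0.058) of the libraries labelled QKO.

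H2A, the histone on which Ring1b places ubiquitin, gave 3 calls in set 2, all higher, from 5 tested genes. Of all genes tested there, 28.7% were called higher. The counts by type also depend on how many genes of a type passed the filter. Hist1h2ae had 5.29, 3.48 and 3.27 CPM in libraries labelled QKO, against 2.32, 2.09 and 2.92 CPM in wild type (0.72 ± 0.21, adjusted p = 0.0029). The call was lost at 0.11 without replicate 1 of the libraries labelled QKO. Hist1h2ah had 0.768, 1.18 and 0.561 CPM in libraries labelled QKO, against 0.348, 0.441 and 0.371 CPM in wild type (1.06 ± 0.45, adjusted p = 0.037). Hist1h2af had 3.03, 2.67 and 2.01 CPM in libraries labelled QKO, against 2.73, 0.881 and 1.20 CPM in wild type, which overlapped (0.70 ± 0.29, adjusted p = 0.039). Both of these lost the call under DESeq2, at adjusted p-values of 0.089 for Hist1h2ah and 0.085 for Hist1h2af, and when single libraries were left out. For Hist1h2ah these were each wild type replicate and replicates 1 and 2 of the libraries labelled QKO, with adjusted p-values up to 0.20, and for Hist1h2af wild type replicates 2 and 3 and replicates 1 and 2 labelled QKO, up to 0.23. Hist1h2ag had 1.45, 1.55 and 0.888 CPM in libraries labelled QKO, against 1.04, 0.771 and 0.695 CPM in wild type, and was not called (0.63 ± 0.35, adjusted p = 0.11).

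**Figure D3:**
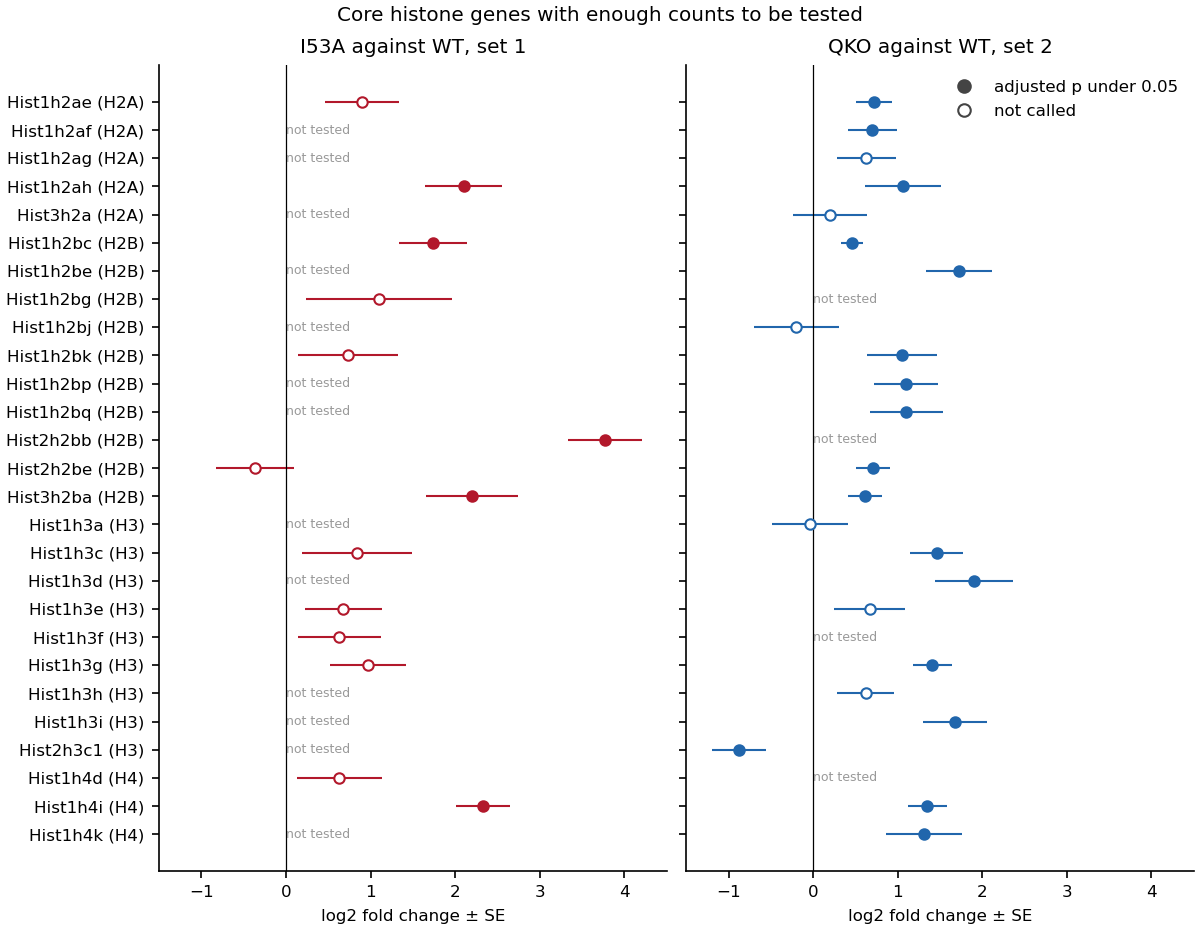
Log2 fold change ± SE of the 27 core histone genes tested in either set, I53A against wild type on the left and libraries labelled QKO against wild type on the right; filled circles passed an adjusted p under 0.05. Values in set 1 reach 3.77 for Hist2h2bb, while those in set 2 lie between -0.88 and 1.90.

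By histone type, the H4 sum of set 2 was 7.55 ± 1.49 CPM in libraries labelled QKO and 3.19 ± 0.446 CPM in wild type, a ratio of 2.36. The ratio was 1.84 for H3, 1.68 for H2A and 1.62 for H2B, and for each type the libraries labelled QKO lay above all wild type libraries. By cluster Hist1 summed to 50.5 ± 0.750 CPM in libraries labelled QKO and 26.8 ± 1.59 CPM in wild type, a ratio of 1.89. Hist2 summed to 6.14, 6.39 and 5.89 CPM in libraries labelled QKO, against 4.46, 5.40 and 5.75 CPM in wild type, a ratio of 1.18 with little space between the groups. The 2 Hist3 genes summed to 5.50 ± 1.71 CPM in libraries labelled QKO and 3.72 ± 0.709 CPM in wild type, and these overlapped.

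Without a filter, 60 genes had a count in set 2 and 51 of them lay above 0, with a median of 1.01, against 0.08 over all 24261 genes with a count. The groups did not overlap for 27 of the 60 with higher values in libraries labelled QKO (45.0%), against 24.7% of all genes with a count, and for 1 with lower values, against 20.5%. Of the 27, 25 were Hist1 genes. The unfiltered fit also called genes with few reads. Hist1h2ac had 5, 6 and 12 counts in libraries labelled QKO and 2, 1 and 0 in wild type, and Hist1h2bf had 15, 7 and 8 in libraries labelled QKO and 3, 3 and 1 in wild type. Hist1h2aa, the H2A gene of the testis pair, had 4, 2 and 4 counts in libraries labelled QKO and 0 in all wild type libraries. Against a floor of 3 counts over the wild type group it was at least 3.17-fold higher. Its partner, the testis H2B gene Hist1h2ba, had 2 counts over all libraries of set 2. Hist4h4, the lone Hist4 gene, was not called, with 4, 2 and 2 counts in libraries labelled QKO and 0, 1 and 0 in wild type.

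Between the sets, 4 genes were called higher in both: Hist1h4i, Hist1h2ah, Hist3h2ba and Hist1h2bc. That is 4 of 10 genes tested in both sets, against 1102 of all 14589. Of the 10, 9 had the same sign, against 8287 of all 14589. In each set a gene with few counts can pass the filter through its higher group. The 10 genes are therefore not a sample of the core histone genes. Their shares beside those of all genes are a description, and no conclusion on a shared response is drawn from them. Pearson's r between the log2 fold changes of the sets was 0.07 over the 10 genes and 0.32 over all genes, given as a description across genes, which are not independent. The sets share no library, and each has its own wild type. The difference between the I53A effect and the effect in libraries labelled QKO was tested in a fit over all 12 libraries, which called 5 of 27 tested core histone genes, 4 with a higher value in I53A and 1 with a lower value, while 36.1% of all 16501 genes were called (18% higher and 18.1% lower). With the replicate number as a block the count was 8, and 48.9% of all genes were called.

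Hist2h3c1 had the largest difference, 4.32 ± 0.81 on the log2 scale (adjusted p = 0.00073). It had 9, 20 and 7 counts in I53A libraries, against 0, 2 and 1 in wild type, and did not pass the filter within set 1 (3.40 with no filter, adjusted p = 0.009), while it was lower in libraries labelled QKO. Hist2h2bb followed with 3.13 ± 0.70 (adjusted p = 0.0028). In set 2 it had 0.469, 0.435 and 0.281 CPM in libraries labelled QKO, against 0.348, 0.220 and 0.185 CPM in wild type, and these groups overlapped. Hist1h2bc differed by 1.31 ± 0.39 (adjusted p = 0.017) and Hist3h2ba by 1.61 ± 0.57 (adjusted p = 0.04), both called higher in both sets with the larger value in I53A. The call for Hist3h2ba was lost in 8 of 18 alternatives, at adjusted p-values up to 0.14. Hist1h3i went the other way, at -2.14 ± 0.62 (adjusted p = 0.014). It had 0.443, 0.618 and 0.237 CPM in I53A libraries, against 0.505, 0.502 and 0.916 CPM in wild type of set 1, and those groups overlapped.

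Along the chromosomes the genes form blocks, taken here as runs with no gap over 100000 bases between neighbouring members. The Hist1 genes fell into 5 such blocks. The largest held 24 genes, and Hist1h4h and Hist1h3a stand at its ends. Its sum was 16.3 ± 5.90 CPM in I53A and 8.89 ± 5.34 CPM in wild type of set 1, and 32.1 ± 0.691 CPM in libraries labelled QKO and 18.1 ± 0.493 CPM in wild type of set 2. The set 1 groups overlapped, at 13.3, 12.5 and 23.1 CPM in I53A and 6.23, 5.41 and 15.0 CPM in wild type. Of its tested genes 1 of 8 was called higher in set 1 and 7 of 9 in set 2. The shares of all genes tested were 18.1% and 28.7%. A block of 18 genes with Hist1h2bl and Hist1h2br at its ends had none of its genes tested in set 1. In set 2, 4 of its 5 tested genes were called higher, against 28.7% of all genes tested. A block of 5 genes, with Hist1h2ah and Hist1h2bj at its ends over 8.56 kb, summed to 5.38 ± 0.459 CPM in I53A and 1.94 ± 0.899 CPM in wild type, a ratio of 2.77. It held 2 of the 5 genes called in set 1, from 3 genes tested in the block, where 18.1% of all genes tested were called higher. In set 2 its sum was 8.00 ± 1.66 CPM in libraries labelled QKO and 3.94 ± 0.482 CPM in wild type, a ratio of 2.03. There 3 of its 5 tested genes were called higher.

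**Figure D4:**
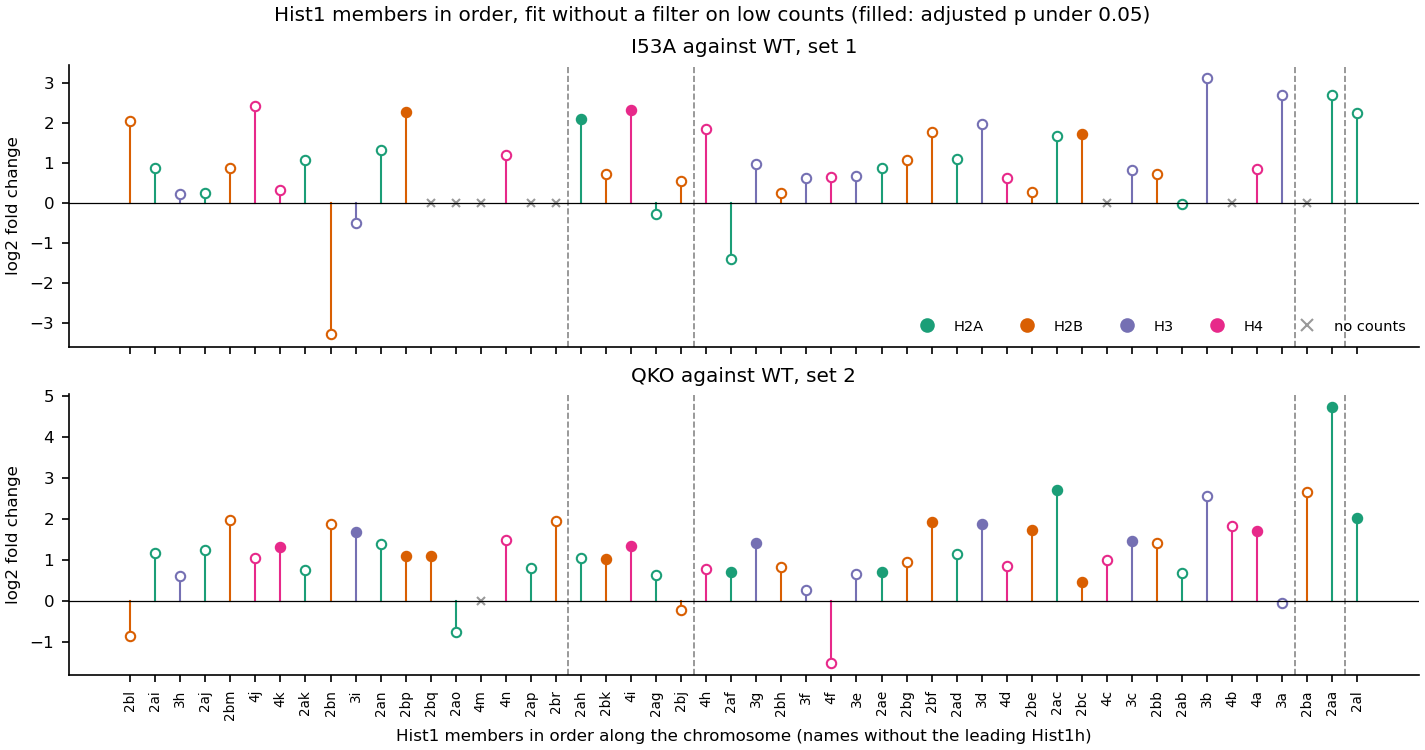
Log2 fold changes of the 50 Hist1 genes in their order along chromosome 13, from a fit with no filter on low counts, for I53A against wild type (top) and libraries labelled QKO against wild type (bottom); colours are histone types, dashed lines part the blocks, and crosses mark genes without counts. Values above 0 run through all blocks in both panels, with 37 of 42 in set 1 and 44 of 49 in set 2, and genes with few reads have the longest stems.

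H2A and H2B genes faced each other head to head, within 500 bases, in 13 pairs. For Hist1h2ah and Hist1h2bk, which lie 177 bases apart, so that the Hist1h2ah promoter printed above spans the whole gap, the log2 fold changes were 2.10 and 0.73 in set 1 and 1.06 and 1.05 in set 2. Hist1h2ae and Hist1h2bg, 175 bases apart, stood at 0.90 and 1.10 in set 1, and neither was called. Hist1h2ag and Hist1h2bj stood at 0.63 and -0.20 in set 2, and neither was called there. In the other pairs at most 1 gene was tested in a set.

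The 4 linker histone genes of the QKO label lie within the Hist1 cluster. Within 10 kb of one of them were 9 core histone genes, of which 4 of 5 tested were called higher in set 2, with a median log2 fold change of 1.46. Of the 41 Hist1 genes farther away, 10 of 14 tested were called higher, with a median of 0.88. The nearest was Hist1h2be, 631 bases from Hist1h1e, and its exons also overlap another annotated gene over 6.69% of their length. Of all genes tested in set 2, 28.7% were called higher. With untested genes included, groups did not overlap for 5 of the 9 near genes and 20 of the 41 farther ones. These were all higher in libraries labelled QKO, against 24.7% of all genes with a count. Both medians cover only genes that passed the filter, which a gene can do through its higher group. The difference between near and far genes was not tested.

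A few genes had counts in set 2 only. Hist1h2bq had 82 counts over the 6 libraries of set 2, Hist1h2ao 29, Hist1h2ap 29, Hist1h2br 22 and Hist1h4c 10. Hist1h2ba had 2 and Hist1h4b had 1. Each of these genes had 0 counts over the 6 libraries of set 1. Hist1h2bq and Hist1h2br, with Hist1h2ao and Hist1h2ap beside them, are the duplicated pairs of the promoter shown above. Hist2h2ab, Hist2h2aa1 and Hist1h4m had 0 counts in all 12 libraries. The exons of Hist2h2ab lie wholly within another annotated gene and those of Hist2h2aa1 to 97.2% within Hist2h3c1. Per the file headers, the names of the set 1 alignments hold tophat and unique and those of set 2 hold neither, while the submitters' processing notes name HISAT2. So the aligner may differ between the sets. H3f3a, which encodes the replacement histone H3.3, differed between the sets too. It averaged 5.08 ± 3.06 CPM in I53A and 6.56 ± 3.57 CPM in wild type of set 1. In set 2 it averaged 306 ± 5.32 CPM in libraries labelled QKO and 328 ± 10.3 CPM in wild type. The part of the alignment in these differences was not tested.

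The genes that make, process and carry core histones, taken from lists chosen for this work, are given next. Among 12 activators and coactivators of histone transcription, 1 was called higher and 3 lower in I53A (median log2 fold change -0.05), and 2 higher and 7 lower in libraries labelled QKO (median -0.21). The median over all genes tested was 0.0 in both sets. Of all genes tested, 18.1% were called higher and 17.4% lower in I53A, and 28.7% and 29% in libraries labelled QKO. Npat, which switches on the histone genes in S phase, averaged 114 ± 7.17 CPM in I53A and 118 ± 5.03 CPM in wild type (adjusted p = 0.67), and 127 ± 1.48 CPM in libraries labelled QKO and 120 ± 6.91 CPM in wild type (adjusted p = 0.15). Casp8ap2, the FLASH protein of histone locus bodies, fell by 0.27 on the log2 scale in I53A (adjusted p = 0.021) and by 0.20 in libraries labelled QKO (adjusted p = 0.00044). The largest changes in I53A were those of Cdk2 (-0.54 ± 0.09), the kinase that activates NPAT, of its activating phosphatase Cdc25a (-0.41 ± 0.07) and of the transcription factor Yy1 (0.31 ± 0.07). In libraries labelled QKO they were those of E2f1 (-0.94 ± 0.06), a driver of S-phase genes, and of the cyclin E genes Ccne1 (-0.85 ± 0.05) and Ccne2 (-0.47 ± 0.09).

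Of 21 genes for the 3′ end, export, translation and decay of histone mRNA, 3 were higher and 8 lower in I53A (median -0.15), and 7 higher and 10 lower in libraries labelled QKO (median -0.10). Slbp, the stem-loop binding protein, fell by 0.30 in I53A, with 129 ± 11.9 CPM against 160 ± 17.3 CPM in wild type (adjusted p = 0.049). In libraries labelled QKO it fell by 0.11, with 146 ± 1.97 CPM against 158 ± 4.21 CPM in wild type (adjusted p = 0.022). The largest changes in I53A were in Upf1 (-0.67 ± 0.15), a helicase of mRNA decay, Zfp473 (-0.66 ± 0.09), a partner of the U7 particle that cuts histone mRNA, and Srrt (0.49 ± 0.07). In libraries labelled QKO they were in Lsm10 (-0.54 ± 0.13), a subunit of the U7 particle, Zfp473 (0.36 ± 0.06) and the splicing factor Srsf7 (-0.35 ± 0.04).

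Of 20 histone chaperones and importers, 0 were higher and 4 lower in I53A by edgeR, with 1 higher at an unadjusted p under 0.05 and 1 by DESeq2. The largest decreases were in Chaf1b (-0.60 ± 0.06) of chromatin assembly factor 1, Supt16h (-0.48 ± 0.07) of the FACT complex and Asf1a (-0.38 ± 0.12), a carrier of H3 and H4. In libraries labelled QKO 7 were higher and 6 lower, and Supt16h (0.62 ± 0.04) and Asf1a (0.54 ± 0.05) were among the increases, as was the importer Ipo4 (0.91 ± 0.05).

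Of 36 replication genes expressed around S phase, 0 were higher and 15 lower in I53A by edgeR (median -0.27), with 1 higher at an unadjusted p under 0.05 and 0 by DESeq2. The largest decreases were in Gins3 (-0.93 ± 0.13), a subunit of the replicative helicase, and in the polymerase genes Pold1 (-0.71 ± 0.11) and Pola1 (-0.71 ± 0.07). In libraries labelled QKO 5 were higher and 23 lower (median -0.21), led by Rrm2 (-0.94 ± 0.04), a subunit of ribonucleotide reductase, Ung (-0.82 ± 0.05) and Gins2 (-0.76 ± 0.06). Summed, these 36 genes stood at 5870 to 6130 CPM in I53A and 7140 to 7250 CPM in wild type, and at 7630 to 7750 CPM in libraries labelled QKO and 8990 to 9110 CPM in wild type. Of all genes tested, 17.4% were called lower in I53A and 29% in libraries labelled QKO. In both sets the core histone sums were higher in the mutant libraries and these S-phase sums were lower. Any link between the sums was not tested. Of 19 genes expressed around G2 and mitosis, 2 were higher and 2 lower in I53A, among them Nusap1 (-0.56 ± 0.07), Cenpf (-0.49 ± 0.09) and Cenpe (0.32 ± 0.10), and 4 were higher and 9 lower in libraries labelled QKO, led by Ube2c (-0.31 ± 0.04), Plk1 (0.27 ± 0.04) and Ccnb2 (-0.25 ± 0.04).

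Of 9 listed replacement histone genes, edgeR called 0 higher and 1 lower in I53A, the macroH2A gene H2afy2 (-1.14 ± 0.14). In libraries labelled QKO it called 1 higher and 7 lower. DESeq2 and an unadjusted p under 0.05 also gave 0 higher in I53A, and with library totals in place of TMM 4 were lower in libraries labelled QKO. The largest changes in libraries labelled QKO were in H2afy2 (-1.65 ± 0.08), the H3.3 gene H3f3b (0.63 ± 0.04) and H2afj (-0.56 ± 0.06). Of 4 linker histone genes tested in set 1, Hist1h1c (1.49 ± 0.38) and H1f0 (0.65 ± 0.10) were higher in I53A. Of 7 tested in set 2, Hist1h1t (6.64 ± 0.62), Hist1h1b (3.52 ± 0.37), H1f0 (3.08 ± 0.04) and H1fx (2.62 ± 0.05) were higher in libraries labelled QKO. The wild type libraries of set 2 averaged 0.0193 ± 0.0335 CPM for Hist1h1t, so this fold rests on almost no counts in wild type. In both sets 0 linker histone genes were lower by edgeR, by DESeq2 or at an unadjusted p under 0.05.

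**Figure D5:**
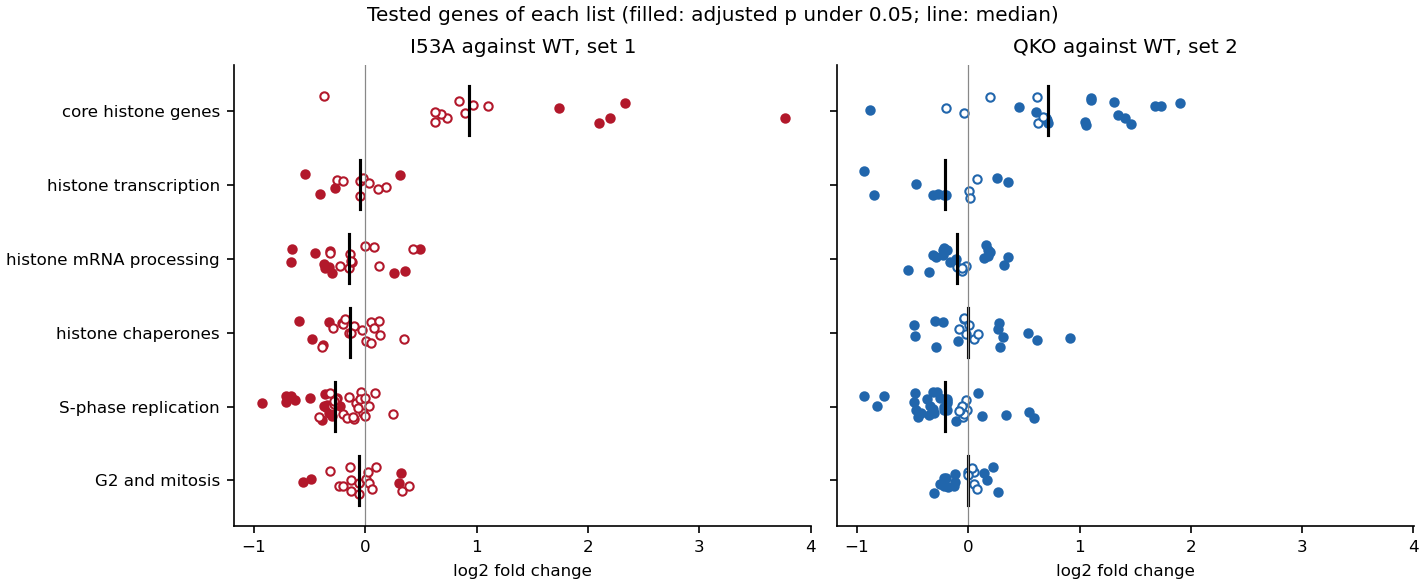
Log2 fold changes of the tested genes of 6 groups, I53A against wild type on the left and libraries labelled QKO against wild type on the right; filled circles passed an adjusted p under 0.05, and black lines are medians. The core histone genes that passed the filter lie mostly right of 0, with medians of 0.93 and 0.72. The S-phase genes have medians of -0.27 and -0.21. A core histone gene can pass the filter through the group where it is high, so its medians do not describe all 63 genes.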

How the data were processed

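RNA from 12 mouse embryonic stem cell libraries was extracted with TRIzol and made into Illumina TruSeq libraries, per the labels' protocols. The authors deposited raw read counts per gene, made with featureCounts 1.6.3 on an mm9 annotation with no strand or multi-mapping option, per the file headers. The submitters' processing notes also name HISAT2, Bowtie2, SAMtools and DESeq2 and the builds mm9 and dm6. The selection of RNA was not given in the sources used here. All 33924 genes entered the fits, and 0 columns were left without a sample.

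Counts were scaled by TMM and tested with edgeR 4.0.16 in R 4.3.3 (filterByExpr, robust quasi-likelihood test, two-sided, Benjamini-Hochberg over all genes tested, threshold 0.05). Each genotype was compared with the wild type of its set, and the difference of the effects was tested over all 12 libraries. DESeq2 1.42.0, other scalings, other filters, a replicate block, a shared fit and leaving out each replicate were the alternatives. Splitting replicate 3 of set 1 from replicates 1 and 2 for the summed level, leaving Hist1h2af out of it and rescaling the counts of non-overlapping genes were added after seeing the data. The scripts were tested on simulated data. CPM was scaled within each set. RPKM divides CPM scaled over all 12 libraries by annotated exon length.

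In set 1 same-numbered libraries deviated together, with correlations of 0.34, 0.40 and 0.62 over 15536 genes. Replicates 1 and 2 also correlated across numbers at 0.33 and 0.30, so this check sets only replicate 3 apart. The main fits held genotype only, and the replicate numbers entered as pairs only in the alternative with a replicate block. The members and gene lists were chosen with earlier results of these data known. Values per library are given for genes called in a comparison, for those with a mean of at least 1 CPM in a group and for those whose call ended under an alternative. From the lists of histone-related and cell cycle genes, counts and the called genes with the 3 largest changes are given, with Slbp, Npat and Casp8ap2 in any case. Cell type marker lists are given by counts and summed levels.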

Additional observations from a re-analysis of the deposited data

Results flagged for a closer look

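For 5 core histone genes the I53A effect and the effect in libraries labelled QKO differed by edgeR's test of the difference. On the log2 scale the difference was 4.32 for Hist2h3c1 (adjusted p = 0.00073), 3.13 for Hist2h2bb (adjusted p = 0.0028), 1.61 for Hist3h2ba (adjusted p = 0.04), 1.31 for Hist1h2bc (adjusted p = 0.017) and -2.14 for Hist1h3i (adjusted p = 0.014). The sets differ also in how their alignments are named, and the part of this in the differences was not tested.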

How the results depend on the processing

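In set 1 the 5 calls among 14 tested genes became 3 among 6 with a filter of 1 CPM in 3 libraries. Hist3h2ba and Hist1h2ah were no longer tested there. With all 12 libraries in a shared fit they became 10 among 27. In set 2 the 17 calls became 11 with the stricter filter, which no longer tested 6 of them, and 7 in the shared fit, whose spread includes set 1. The share of all genes called is given only for the main fits and for the replicate block in set 1 and the difference. The other counts are therefore not read as gains or losses. Without Hist1h2bc the log2 ratio of the summed level in set 2 was 0.88, against 0.80 with it. With the replicate number as a block the difference between the sets had 8 calls in place of 5, while set 1 kept its 5 and set 2 its 17. In set 2 same-numbered libraries correlated at 0.03, -0.01 and 0.08, so they share only a number.

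Leaving out 1 replicate at a time gave 5 to 6 calls in set 1, 12 to 15 in set 2 and 4 to 7 for the difference, with log2 ratios of the sum of 0.84 to 1.41 in set 1 and 0.78 to 0.84 in set 2. Signs turned only for genes that were not called, namely Hist2h2be in set 1 (-0.69 to 0.03), Hist3h2a (-0.15 to 0.76), Hist1h2bj (-0.59 to 0.23) and Hist1h3a (-0.20 to 0.24) in set 2, and Hist1h2af in the difference (-5.74 to 0.09). Among single-gene values 38 of set 2 lost the threshold under some alternative, against 2 of set 1 and 8 of the difference. The causes were not tested. Most of these genes have under 100 counts per library, which limits what can be called.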
